A study of Mus musculus with 4 samples.

Results

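The 9 genes described here sustain acute myeloid leukaemia driven by MLL-AF9, a fusion oncogene: Dot1l, Men1, Psip1, Jmjd1c, Cdk6, Myb, Myc, Mef2c and Zeb2. The rule that picks them is this list of names and sets no limit on a measured value, although earlier results of these data were known when the list was made. All 9 had a row among the 27998 gene rows of the deposited table. Single-cell RNA sequencing had been carried out on GFP-positive leukaemia cells from mouse bone marrow, with 1 sample for each of 4 combinations of Hif-1a genotype and treatment. These were Hif-1a wt with PBS, Hif-1a KO with PBS, Hif-1a wt with chemotherapy and Hif-1a KO with chemotherapy. Every leukaemia began from c-Kit+ marrow cells that carried the Hif-1alpha Lox/Lox allele and CreERT2, a Cre recombinase activated by tamoxifen, and received MLL-AF9 by retrovirus, so the wild-type arms share the floxed allele, the Cre and the oncogene. The cells grew first in wild type recipients and were then passed to further mice, which received tamoxifen (1 mg) or vehicle for 5 days from day 10. Chemotherapy was cytarabine (100 mg/kg, 5 days) with doxorubicin (3 mg/kg, 3 days), the control was PBS, and cells were sorted 3 days after treatment from C57BL6 mice of 11 weeks. No source used here gives the promoter that drives CreERT2, the number of independent leukaemias or any pooling of mice.

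MLL (KMT2A) is a histone methyltransferase that keeps developmental genes such as the HOXA cluster active in blood progenitors. The fusion keeps the part of MLL that menin and LEDGF hold on chromatin and joins it to AF9, which brings in DOT1L and the elongation machinery. Genes held on in this way or needed further downstream, among them CDK6, MYB, MYC and MEF2C, keep the leukaemia cells dividing and block their maturation into monocytes and granulocytes.

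The deposited table gives UMI counts, in which each captured transcript end counts once. Levels are given in CPM, in which UMI sums are divided by the total of the summed cells and brought to one common scale, and a level of 1 gene is compared only with levels of the same gene. Each cell barcode ends in a suffix from 1 to 4. No source used here ties a suffix to a sample, so each suffix has its own value, no genotype or treatment was compared and no p-value was computed. After filtering, 5456 of 5664 barcodes remained, with 1174, 1251, 1625 and 1406 cells in suffixes 1 to 4 and between 7644436 and 9932649 UMIs per suffix. The limit for a gene with a count of 0 (3 counts) lay between 0.302 and 0.392 CPM per suffix. Intervals are 95% intervals for counting error only, exact Poisson for levels and exact conditional for ratios. Where suffixes were picked by their level, as in highest over lowest, the interval takes no account of that choice and is too narrow. Among kept cells, 15 barcode sequences occurred in more than 1 suffix.

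The suffixes differed in makeup. Clustering gave 14 clusters, of which 4 could be named from markers, and the 9 genes were left out of the genes used to cluster. Clusters 10 and 13, led by Nkg7, were granulocyte precursor-like and held 180, 246, 8 and 6 cells of suffixes 1 to 4. Cluster 5 was monocyte-like, was led by Cd74, Ifitm3 and Apoe, also had 7 raised macrophage markers, and held 3, 10, 243 and 176 cells. Cluster 11 was neutrophil-like, was led by Camp, Ngp and S100a9, and held 5, 11, 132 and 94 cells. Summed T and NK cell markers reached at most 0.234 CPM in any suffix, with 6 of the 8 markers found in the table at 0.

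Promoter sequences are shown for 4 of the genes, because in the results Cdk6 and Myb had the closest profiles of any pair and Mef2c and Zeb2 were called together in each named class. The 250 bases before the start site come from RefSeq (GRCm38.p6), written 5′ to 3′ on the gene's strand with CG dinucleotides in capitals. For Mef2c and Zeb2, which have several start sites in RefSeq, the outermost is shown. The Cdk6 window (3343643 to 3343892) lies inside the gene as placed by the GENCODE annotation (3341485 to 3531008). Its counts thus rest on the RefSeq start site.
Cdk6, chr5:3343643-3343892, plus strand: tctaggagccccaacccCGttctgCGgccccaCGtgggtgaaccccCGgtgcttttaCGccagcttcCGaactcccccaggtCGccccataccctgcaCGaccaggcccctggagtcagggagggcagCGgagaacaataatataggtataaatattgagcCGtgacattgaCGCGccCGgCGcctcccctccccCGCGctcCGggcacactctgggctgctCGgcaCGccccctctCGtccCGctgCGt
Myb, chr10:21160985-21161234, minus strand: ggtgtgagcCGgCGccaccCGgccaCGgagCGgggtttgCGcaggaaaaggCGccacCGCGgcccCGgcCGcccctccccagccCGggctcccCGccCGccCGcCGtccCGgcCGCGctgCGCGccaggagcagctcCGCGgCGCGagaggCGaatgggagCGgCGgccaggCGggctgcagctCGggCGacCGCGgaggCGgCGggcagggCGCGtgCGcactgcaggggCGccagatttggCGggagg
Mef2c, chr13:83503784-83504033, plus strand: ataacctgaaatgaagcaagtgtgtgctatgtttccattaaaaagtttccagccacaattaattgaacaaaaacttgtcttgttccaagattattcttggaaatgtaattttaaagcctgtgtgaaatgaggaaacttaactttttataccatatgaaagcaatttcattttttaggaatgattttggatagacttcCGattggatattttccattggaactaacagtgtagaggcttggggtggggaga
Zeb2, chr2:45117443-45117692, minus strand: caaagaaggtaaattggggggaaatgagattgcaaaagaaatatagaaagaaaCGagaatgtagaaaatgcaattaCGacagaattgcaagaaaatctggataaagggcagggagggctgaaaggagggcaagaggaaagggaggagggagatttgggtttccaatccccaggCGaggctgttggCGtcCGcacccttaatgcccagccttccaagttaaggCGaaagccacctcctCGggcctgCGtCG
The Cdk6 and Myb windows held 22 and 40 CG dinucleotides, and those of Mef2c and Zeb2 held 1 and 9. The median over 32851 windows of the same length was 6. The letters ACGTG or GCGTG, the core that HIF-1 recognises, were searched on both strands and occurred 3 times in the Cdk6 window, 1 time in the Myb window and 0 times in the Mef2c and Zeb2 windows shown, and 38.6% of all windows held at least 1. The E-box CACGTG, recognised by MYC, occurred 1 time in the Cdk6 window and in 6.02% of all windows, and since it reads the same on both strands it accounts for 2 of the 3 cores counted there. The counts depend on the start site: other Mef2c windows held 4 and 6 CG dinucleotides, other Zeb2 windows held between 6 and 14, and 2 of those Zeb2 windows held 1 HIF-1 core each. These matches describe letters, not binding.

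Across the suffixes, Myc, Psip1, Myb, Men1 and Mef2c differed at least 1.5-fold between the highest and the lowest suffix, with 1 CPM added to both, and with an interval that excluded 1, and Dot1l, Jmjd1c, Cdk6 and Zeb2 did not. Thus 5 of 9 genes met this rule, against 38.3% of the 8240 genes with a mean of at least 5 CPM. The ratios printed below have no added CPM. In bulk sums of this kind, fewer cells of a type and less RNA per cell cannot be told apart.

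**Figure D1:**
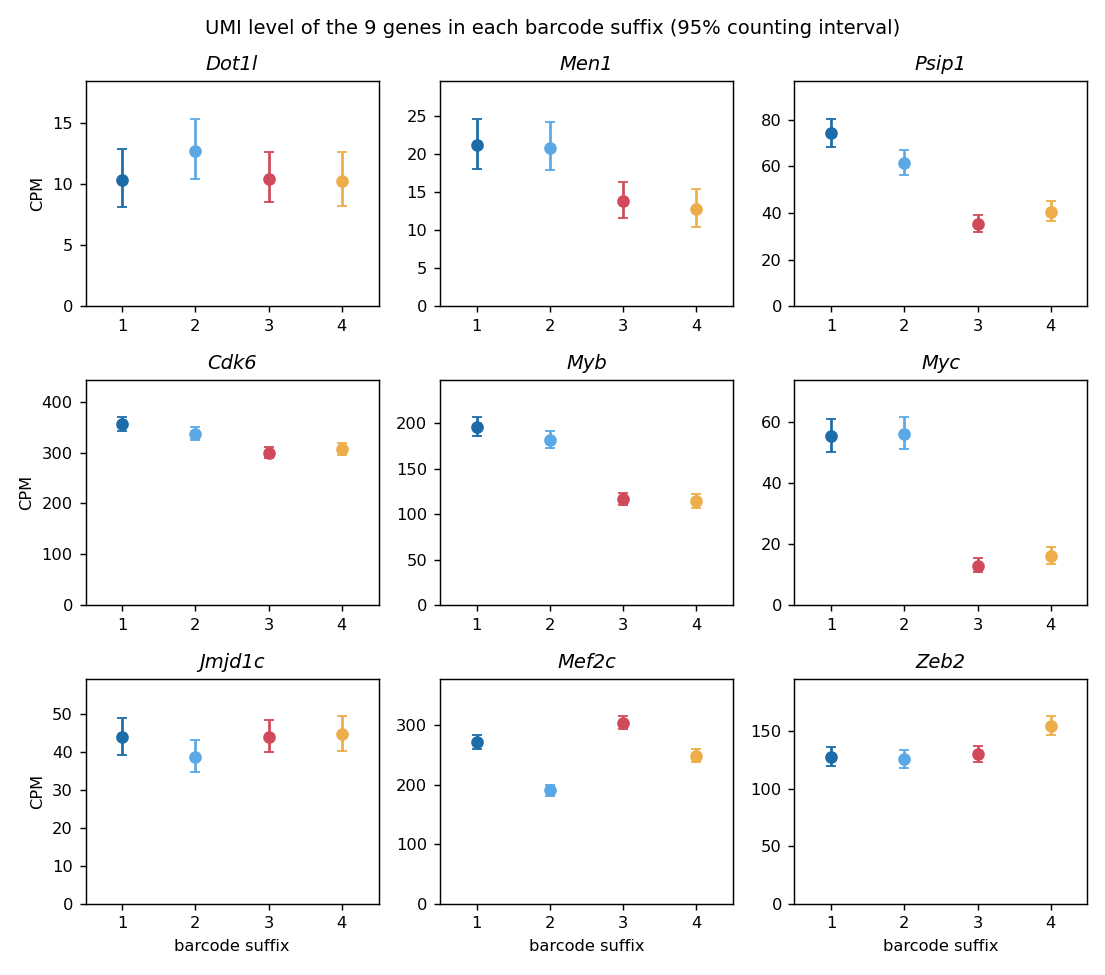
Level of each gene (CPM, linear axis from 0) in the kept cells of each barcode suffix, with 95% Poisson intervals as bars. Myc, Myb, Men1 and Psip1 lay higher in suffixes 1 and 2 than in 3 and 4, and Mef2c was lowest in suffix 2.

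The cofactors that hold or read MLL on chromatin are described first. Men1 (ENSMUSG00000024947.17, chromosome 19 from 6334979 to 6340891, plus strand, GRCm38) encodes menin, the scaffold that binds the amino end of MLL. It stood at 21.2, 20.9, 13.9 and 12.7 CPM in suffixes 1 to 4. The first pair did not differ from each other, nor did the second, and both suffixes of the first pair lay above both of the second. Highest over lowest was 1.66-fold (1.3 to 2.14). Without suffix 4 it was 1.53-fold, or 1.49-fold with 1 CPM added to both, which ended the call.

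Psip1 (ENSMUSG00000028484.16, chromosome 4 from 83455680 to 83486459, minus strand) encodes LEDGF, the chromatin reader that anchors menin and MLL. Its levels were 74.2, 61.5, 35.4 and 40.6 CPM. Suffix 1 exceeded suffix 2 by 1.21-fold (1.07 to 1.36) and suffix 2 exceeded suffix 4 by 1.51-fold (1.32 to 1.74), whereas suffixes 4 and 3 overlapped in their intervals. From the highest to the lowest suffix the ratio was 2.09 (1.83 to 2.40). Psip1 shares 483 exon bases with Snapc3 on the opposite strand, a gene at 9.69 CPM over all cells, and no source used here says whether counting used strand.

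Dot1l (ENSMUSG00000061589.14, chromosome 10 from 80755206 to 80795461, plus strand) encodes the histone methyltransferase that AF9 recruits. It was the gene with the fewest UMIs of the 9, 377 in all, and stood at 10.3, 12.7, 10.5 and 10.3 CPM. No neighbouring pair in this order differed beyond its interval, and the full range was 1.24-fold (0.923 to 1.66). At this depth no difference between suffixes was detectable for Dot1l. Jmjd1c (ENSMUSG00000037876.17, chromosome 10 from 67096125 to 67256326, plus strand) encodes a member of the KDM3 family of histone demethylases. With 44.0, 38.8, 44.1 and 44.8 CPM it had the smallest range of the 9, at 1.15-fold (0.993 to 1.34).

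Cdk6 (ENSMUSG00000040274.11, chromosome 5 from 3341485 to 3531008, plus strand), the cyclin D-dependent kinase that drives entry into the cell cycle, stood at 356, 337, 299 and 307 CPM. Suffixes 1 and 2 lay above 3 and 4, but only by a small margin: highest over lowest was 1.19-fold (1.13 to 1.25). The interval excluded 1 and the size stayed under the 1.5-fold used for a call.

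Myb (ENSMUSG00000019982.15, chromosome 10 from 21124935 to 21160984, minus strand) encodes a transcription factor of blood progenitors that MLL-AF9 cells cannot spare. It stood at 196, 181, 116 and 114 CPM, so suffixes 1 and 2 were again the high pair, with 1.72-fold (1.58 to 1.86) from highest to lowest. Myc (ENSMUSG00000022346.15, chromosome 15 from 61985391 to 61990374, plus strand) encodes the transcription factor that drives ribosome production and growth. Its levels of 55.5, 56.2, 12.9 and 16.0 CPM gave the widest range among the 9 genes, 4.36-fold (3.58 to 5.34). Suffixes 1 and 2 did not differ, and suffix 1 exceeded suffix 4 by 3.46-fold (2.85 to 4.23).

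Mef2c (ENSMUSG00000005583.16, chromosome 13 from 83504034 to 83667080, plus strand) encodes a MADS-box factor active in lymphoid and monocytic cells and in MLL-rearranged leukaemia. It followed another order, with 272, 190, 304 and 248 CPM in suffixes 1 to 4. Suffix 3 was highest and suffix 2 lowest, each neighbouring pair in the order differed beyond its interval, and the range was 1.60-fold (1.5 to 1.7). Without suffix 2 the Mef2c range was 1.22-fold and without suffix 3 it was 1.43-fold, under the size for a call. Zeb2 (ENSMUSG00000026872.17, chromosome 2 from 44983632 to 45117395, minus strand), a zinc-finger transcriptional repressor with a role in dendritic cells and monocytes, stood at 128, 126, 130 and 154 CPM. Suffix 4 was above the other 3, which did not differ among themselves, and the range was 1.23-fold (1.13 to 1.33).

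Lists of genes from the same pathways also differed between suffixes. Of 14 MYC-driven genes of ribosome and nucleotide synthesis, 10 met the call rule, and their summed level was 4631, 4649, 2894 and 3175 CPM in suffixes 1 to 4. All 12 S phase genes met it, with sums of 1736, 1428, 939 and 965 CPM, so the genes of DNA replication were high in the same 2 suffixes as Myc, Myb and Psip1. Their part in the levels of the 9 genes was not tested. Of the measured members of the menin and MLL complex list, 3 of 12 met the rule, and of the MLL-fusion target genes 1 of 10 did, both under the 38.3% of all genes.

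To set makeup apart from level in part of the cells, the 4 clusters with at least 30 cells in every suffix (0, 4, 9 and 12) were weighted equally. All named classes and every other cluster were left out, and clusters 0 and 12 were led by cell cycle genes. Some levels rest on very few UMIs, such as 1 each for Dot1l and Men1 in cluster 9 of suffix 4. Under equal weights Myc stood at 33.1, 43.8, 12.4 and 15.1 CPM in suffixes 1 to 4, a range of 3.52-fold. Within cluster 0, led by the replication genes Rrm2 and Tk1, Myc was at 52.2, 47.5, 23.3 and 24.3 CPM, with 2.24-fold (1.54 to 3.28) between highest and lowest. In cluster 9, led by Plpp5 and Mgst1, it was at 53.9, 90.6, 15.6 and 23.9 CPM, a ratio of 5.82 (2.33 to 18.7). By point value, suffixes 1 and 2 were the high pair for Myc in clusters 4 and 12 too, with intervals of the ratio that included 1.

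Myb was highest in suffix 1 or 2 in each of the 4 clusters, with an interval of the ratio that excluded 1 in clusters 0, 9 and 12. In cluster 9 it was at 310, 205, 152 and 152 CPM, 2.03-fold (1.46 to 2.86), and in cluster 4, led by Gsn and Tsc22d1, it was at 122, 125, 104 and 101 CPM, 1.24-fold (0.780 to 1.94). Equal weights gave 1.62-fold for Myb. The Psip1 range narrowed from 2.09 to 1.58-fold and that of Mef2c from 1.60 to 1.29-fold under equal weights. For Mef2c the order changed too: suffix 1 was highest, at 376 CPM, and suffix 2 lowest, at 291 CPM. This average hides wider Mef2c ranges in single clusters, where the order of suffixes differed. In cluster 12 Mef2c was at 383, 220, 475 and 299 CPM, 2.16-fold (1.66 to 2.81), with suffix 3 highest. In cluster 9 the Mef2c range was 1.64-fold (1.16 to 2.34), with suffix 1 highest. In cluster 0 it was 1.21-fold (1.03 to 1.43), and in cluster 4 it was 1.22-fold with an interval that included 1. Men1 stood at 16.5, 23.3, 15.4 and 14.4 CPM under equal weights, a range of 1.62-fold, with suffix 2 highest by point value. The value of suffix 1 includes cluster 4, where it had 2 Men1 UMIs (9.75 CPM, 1.18 to 35.2), against 8 in suffix 2. Cluster 0 alone had a Men1 interval that excluded 1, at 1.93-fold (1.16 to 3.29). Its levels were 27.8, 26.1, 18.0 and 14.4 CPM, so suffixes 1 and 2 were the high pair there. Zeb2 stood at 158, 153, 116 and 150 CPM, where suffix 4 was no longer highest and suffix 3 was lowest, and its range widened from 1.23 to 1.37-fold. The Jmjd1c range widened from 1.15 to 1.37-fold, at 48.7, 45.2, 35.5 and 45.7 CPM. The Dot1l range under equal weights was 1.67-fold, yet its interval included 1 in each of the 4 clusters. This weighting was chosen after seeing the data.

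**Figure D2:**
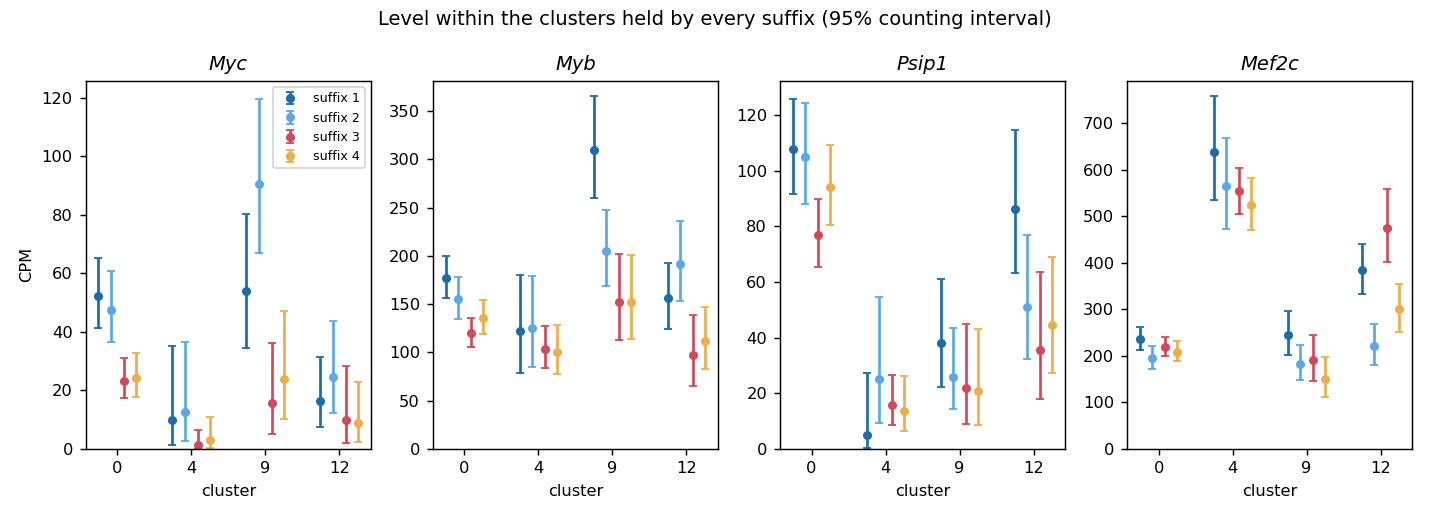
Level (CPM, linear axes from 0, each panel with its own scale) of 4 genes in each suffix within the clusters that have at least 30 cells in every suffix, with 95% Poisson intervals. Myc lies higher in suffixes 1 and 2 than in 3 and 4 in each cluster by point value, with wide intervals in clusters 4 and 12, while Mef2c differs more between clusters than between suffixes.

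Among the named cell classes, the monocyte-like cells stood furthest from the other cells of their suffix for these genes. Each class was set against the rest of its own suffix where both sides held at least 30 cells, which left suffixes 3 and 4 for monocyte-like cells. A gene was called where the median of the log2 ratios of (CPM + 1) reached 1.5-fold, the direction was the same in each usable suffix and the pooled interval excluded 1. Of the 9 genes, 5 were lower (Dot1l, Psip1, Cdk6, Myb and Myc) and 2 higher (Mef2c and Zeb2), against 17.6% lower and 14.5% higher among the 8240 genes. The median of the 9 was -0.87 and that of all genes -0.07 on this log2 scale.

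Myc was nearly undetected in monocyte-like cells. There was 1 Myc UMI among 243 cells of suffix 3 (0.987 CPM, against 14.2 CPM in the other cells) and 0 among 176 cells of suffix 4, against 17.6 CPM. In suffix 4 the floor of 3 counts in the class lay 4.40-fold below the level of the other cells. The exact interval of the Myc ratio in that suffix ran from 0 to 0.283. Both suffixes pooled gave a ratio of 0.0359 (0.000905 to 0.202). The fitted log2 value depends on the added 1 CPM. The median of the 9, -0.87, is the value of Cdk6 and stays the same for any Myc value below it.

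Myb stood at 37.5 CPM in monocyte-like cells of suffix 3 and 16.0 CPM in those of suffix 4, against 125 and 124 CPM in the other cells. Both suffixes were low, suffix 4 more so, and the median log2 ratio was -2.29, that is 4.91-fold lower. The Cdk6 level was 178 and 168 CPM against 313 and 320 CPM, a median log2 ratio of -0.87 with closely similar values in both suffixes. Psip1 was at 15.8 and 21.3 CPM against 37.7 and 42.4 CPM (-1.08). Dot1l was low as well (-0.95), on 4 and 5 UMIs in the class, so its size is poorly determined. The Dot1l call was lost without suffix 3, with a mean over cells and after thinning each cell to 2000 UMIs.

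Mef2c and Zeb2 went the other way. Mef2c was at 483 and 386 CPM in monocyte-like cells against 284 and 235 CPM in the others, a median log2 ratio of 0.74. Zeb2 was at 221 and 285 CPM against 119 and 142 CPM, a log2 ratio of 0.94, and no interval of the class overlapped that of the other cells in either suffix for these 2 genes. When the 9 genes were allowed among those used to cluster, a partly different monocyte-like cluster was found (313 of its 477 cells shared) and Mef2c was at 0.23, no longer called. Men1 was at 9.87 and 13.3 CPM against 14.4 and 12.7 CPM, and Jmjd1c at 64.1 and 47.9 CPM against 41.8 and 44.5 CPM. Neither met the rule, although without suffix 4 Jmjd1c was at 0.61 and was called.

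Cell cycle genes were low in the same cells. All 12 S phase genes (median log2 ratio -2.19) and all 12 genes of G2 and mitosis (-2.93) were lower in monocyte-like cells, with Rrm2, a ribonucleotide reductase subunit, at -3.79. With the 3 clusters led by cell cycle genes left out of the other cells, an alternative added after seeing the data, Psip1 was at -0.45 and no longer called, while Cdk6, Myb, Myc, Mef2c and Zeb2 kept their calls. The part of cell division in the Psip1 difference was not tested beyond this. Summed macrophage markers were 1808 CPM in the class and 299 CPM in all other cells. Summed dendritic cell and MHC class II markers were 785 CPM and 231 CPM, with 5 of 13 raised in the class (Cd74, H2-Aa, H2-Eb1, Bst2 and Cd209a). The part of either set in the Mef2c and Zeb2 levels was not tested.

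Among pathway genes, 11 of 14 MYC-driven genes of ribosome and nucleotide synthesis were lower in monocyte-like cells, against 17.6% of all genes, with a median of -1.13. Srm, the spermidine synthase, was at -2.06, the nucleolar GTPase gene Gnl3 at -2.11, and Npm1, the abundant nucleolar chaperone, at -0.60. In the MYC network, Mycl, a MYC paralogue, was higher at 1.72, while the helicase genes Ruvbl1 and Ruvbl2 were lower at -1.10 and -1.48. Of the CDK6 list, Cdk4, the sister kinase, was lower at -1.19, and Ccnd3, a cyclin that activates both kinases, was higher at 0.76. Cdkn1b, an inhibitor of the cell cycle, was higher at 0.90.

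The chromatin lists were mixed in the same cells. In the menin and MLL complex list 4 of 12 were lower, with the core subunit genes Dpy30 at -1.16, Ash2l at -1.03 and Wdr5 at -0.80, and 0 were higher, against 17.6% lower and 14.5% higher among all genes. The median of that list was -0.21. In the DOT1L and elongation list 0 of 13 met the rule in either direction. Of 10 measured MLL-fusion target genes, Bcl2, the survival factor, was lower at -2.10 and Runx2 higher at 0.75, while Hoxa9, at the centre of the MLL programme, stood at -0.55 and Lmo2 at -0.03 without a call. Around MYB, Gfi1, a transcriptional repressor needed for granulocytes, was lower at -4.13, and it is also 1 of the granulocyte precursor markers used to name cells. Mef2a, a paralogue of Mef2c, was higher at 2.08, and Id2, an inhibitor of E proteins from the Zeb2 list, was higher at 1.97.

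**Figure D3:**
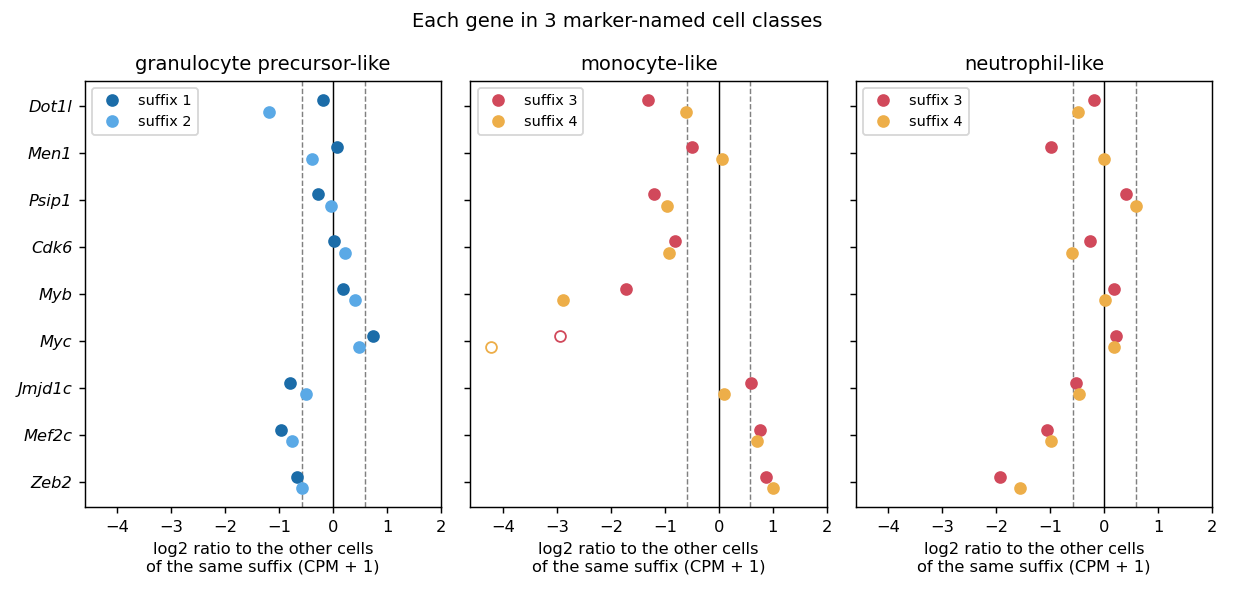
Log2 ratio of (CPM + 1) between each named class and the remaining cells of its suffix (horizontal axis, same scale in each panel) for each gene, 1 point per usable suffix. Dashed lines mark 1.5-fold, and open symbols mark Myc at 1 and 0 UMIs, where the value depends on the added 1 CPM. Monocyte-like cells lie left of 0 for Dot1l, Psip1, Cdk6, Myb and Myc and right of it for Mef2c and Zeb2, and Mef2c and Zeb2 lie left of 0 in the other classes.

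Granulocyte precursor-like cells could be compared in suffixes 1 and 2. Here 4 of the 9 genes were lower (Dot1l, Jmjd1c, Mef2c and Zeb2), against 10.7% of all genes, and Myc was higher, against 3.17%. The median of the 9 was -0.16, close to -0.11 for all genes. Mef2c was at 152 and 122 CPM in the class against 297 and 210 CPM in the other cells, a median log2 ratio of -0.87. Both suffixes were low, and their intervals did not overlap with those of the other cells.

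Zeb2 was at 85.4 and 90.3 CPM against 136 and 136 CPM (-0.63), and Jmjd1c at 26.7 and 29.0 CPM against 47.5 and 41.6 CPM (-0.66). Myc was at 83.1 and 72.0 CPM against 49.7 and 51.7 CPM (0.60), at the edge of the rule. Dot1l rested on 12 and 11 UMIs in the class, with 9.15 and 5.91 CPM against 10.6 and 14.7 CPM (-0.69), so that most of its difference lay in suffix 2. Without suffix 1 the calls of Myc, Jmjd1c and Zeb2 were lost, and without suffix 2 that of Dot1l was. Dot1l turned to 0.17 when the 9 genes were allowed to shape the clusters, where the class grew to 917 cells.

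Men1, Psip1, Cdk6 and Myb did not meet the rule in granulocyte precursor-like cells. Myb stood at 217 and 225 CPM against 192 and 169 CPM, and Cdk6 at 360 and 380 CPM against 355 and 325 CPM. Both genes thus lay slightly above the other cells, by less than 1.5-fold. All 12 genes of G2 and mitosis were lower in the class (median -1.69), against 1 of 12 S phase genes. With the cell cycle-led clusters left out of the other cells, Mef2c was at -1.09 and Zeb2 at -0.86, and Myc and Dot1l were no longer called.

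MLL-fusion target genes were lower in granulocyte precursor-like cells in 5 of 10 cases, against 10.7% of all genes, with a list median of -0.54. Flt3, a progenitor receptor, was at -1.61 and Bcl2 at -1.55, and Hoxa7, Meis1 and Pbx3 were also lower. Flt3, Meis1 and Lmo2 also belong to the marker lists used to name cells. Hoxa9 stood at -0.40 and Lmo2 at -0.25, without a call. Of the CDK6 list 6 of 11 were lower, against the same 10.7%, 5 of them inhibitors: Cdkn2a at -1.49 and Cdkn2d at -1.43 were the furthest. The E protein gene Tcf4 was lower at -1.14. Gfi1 was at 1.09, which restates the naming of the class, since Gfi1 was among the raised markers of cluster 13.

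In neutrophil-like cells, set against the other cells of suffixes 3 and 4, only Mef2c and Zeb2 of the 9 genes met the rule. Of the 9, 2 were lower and 0 higher, against 29.1% and 6.04% of all genes, so neither share exceeded that of all genes. The median of the 9, -0.43, was near that of all genes, -0.40. Zeb2 was at 35.6 and 54.3 CPM in the class against 139 and 161 CPM in the others, a log2 ratio of -1.74, or 3.35-fold lower. Mef2c was at 152 and 128 CPM against 319 and 257 CPM (-1.03). For both genes the 2 suffixes were alike and their intervals stayed clear of those of the other cells.

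The remaining 7 genes did not meet the rule in neutrophil-like cells. Myb, at 130 and 116 CPM against 115 and 114 CPM, and Myc, at 14.9 and 18.1 CPM against 12.7 and 15.9 CPM, stood near the level of the other cells. Psip1 stood at 46.0 and 59.7 CPM against 34.4 and 39.3 CPM (0.50). Neutrophil granule and marker genes took up 191577 CPM in this class and 3799 CPM in the other cells. When the summed counts were scaled by TMM or by the median of ratios, the median of all genes moved by 0.26 and 0.31. Psip1 then met the rule as higher (0.77 and 0.81), and Mef2c and Zeb2 stayed lower.

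Of the 14 MYC-driven genes, 10 were lower in neutrophil-like cells (median -0.78), against 29.1% of all genes, where Myc itself did not meet the rule, among them Npm1 at -1.28 and Srm at -1.60. No S phase gene was higher and Ung was lower, whereas 4 of 12 genes of G2 and mitosis were higher, with Nusap1 at 0.71. Of the MLL-fusion targets 4 of 10 were lower, near the 29.1% of all genes, and their median of -0.45 was near the -0.40 of all genes. They were Runx2, Flt3 at -3.51, Bcl2 at -3.37 and Lmo2 at -0.62, while Hoxa9 stood at -0.12 without a call. Gfi1, at 1.87, was among the granulocyte precursor markers raised in this cluster. The Mef2c paralogues Mef2d and Mef2a were lower at -2.36 and -1.25.

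Monocyte-like and neutrophil-like cells were both present in suffixes 3 and 4, so their levels can be set side by side within a suffix. Zeb2 stood at 221 and 285 CPM in the first class against 35.6 and 54.3 CPM in the second, and Mef2c at 483 and 386 CPM against 152 and 128 CPM. Myb went the other way, at 37.5 and 16.0 CPM against 130 and 116 CPM, as did Psip1, at 15.8 and 21.3 CPM against 46.0 and 59.7 CPM. For these 4 genes the intervals of the classes did not overlap in either suffix, whereas for Cdk6 (178 and 168 CPM against 254 and 206 CPM) they overlapped in suffix 4. Granulocyte precursor-like cells came from suffixes 1 and 2, so between them and the other classes, class and suffix cannot be told apart.

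Zeb2 has a partner on the opposite strand, Zeb2os, with which it shares 653 exon bases. Zeb2os was at 24.5, 34.2, 59.3 and 72.5 CPM in suffixes 1 to 4, so it was highest in the same suffix as Zeb2 but spanned a wider range. In monocyte-like cells its median log2 ratio was 0.79, in granulocyte precursor-like cells -0.60 and in neutrophil-like cells -3.56, on 3 and 4 UMIs in the class. Without knowing whether counting used strand, reads of the 2 genes cannot be told apart where their exons overlap.

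Over all 14 clusters, with the suffixes summed, the 9 genes peaked in 7 of them. Mef2c was highest in cluster 4, at 554 CPM (521 to 587), a cluster led by Gsn and Tsc22d1 and without a name. The stem and progenitor markers Flt3, Sox4 and Angpt1 and the basophil and mast markers Cpa3 and Gata2 were raised in it. Mef2c was lowest in granulocyte precursor-like cluster 13, at 118 CPM (98.9 to 139). Zeb2 ranged from 247 CPM in monocyte-like cluster 5 to 41.0 CPM in neutrophil-like cluster 11. Monocyte-like cluster 5 held the lowest level of Myb (28.5 CPM), Cdk6 (171 CPM), Dot1l (4.94 CPM) and Myc (0.548 CPM). For Dot1l and Myc this was so by point value only. The Dot1l interval there (2.26 to 9.37) overlapped those of most other clusters. The Myc interval (0.0139 to 3.06) overlapped those of clusters 1 and 4, at 2.47 and 4.03 CPM.

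Myc was highest in granulocyte precursor-like cluster 10, at 86.4 CPM (74.3 to 99.9). Myb stood at 242 CPM (222 to 265) there and at 240 CPM (218 to 263) in cluster 6, with overlapping intervals. Within suffix 1 its highest level was 310 CPM in cluster 9, and within suffix 2 it was 255 CPM in cluster 6, both with intervals that overlapped that of cluster 10. Cdk6 and Jmjd1c were both highest in cluster 6, at 437 and 75.0 CPM. This cluster, led by Cpa3 and Npy and without a name, had 5 raised stem and progenitor markers (Kit, Flt3, Adgrg1, Sox4 and Angpt1). It also had 4 raised basophil and mast markers (Mcpt8, Cpa3, Gata2 and Hdc). Summed basophil and mast markers were 1330 CPM in it and 133 CPM in all other cells. Summed stem and progenitor markers were 1592 CPM and 877 CPM. The Cdk6 interval there (408 to 469) overlapped those of clusters 8, 9, 10 and 12, and the Jmjd1c interval (63.0 to 88.5) those of clusters 4 and 5. Within suffix 2 Cdk6 was highest in cluster 9, at 457 CPM against 390 CPM in cluster 6. Within suffix 3 it was highest in cluster 8, at 441 CPM against 310 CPM. Psip1 was highest in cluster 0, at 93.9 CPM (86.7 to 102), and lowest in cluster 4, at 15.1 CPM (10.2 to 21.6). Men1 ranged from 22.9 CPM in cluster 7, led by Cenpa and Ccnb2, to 6.69 CPM in cluster 1. The interval of cluster 7 (17.6 to 29.3) overlapped those of several others, among them clusters 4 and 6 at 22.6 and 22.1 CPM. Since clusters draw on different suffixes, these sums mix differences of both kinds.

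**Figure D4:**
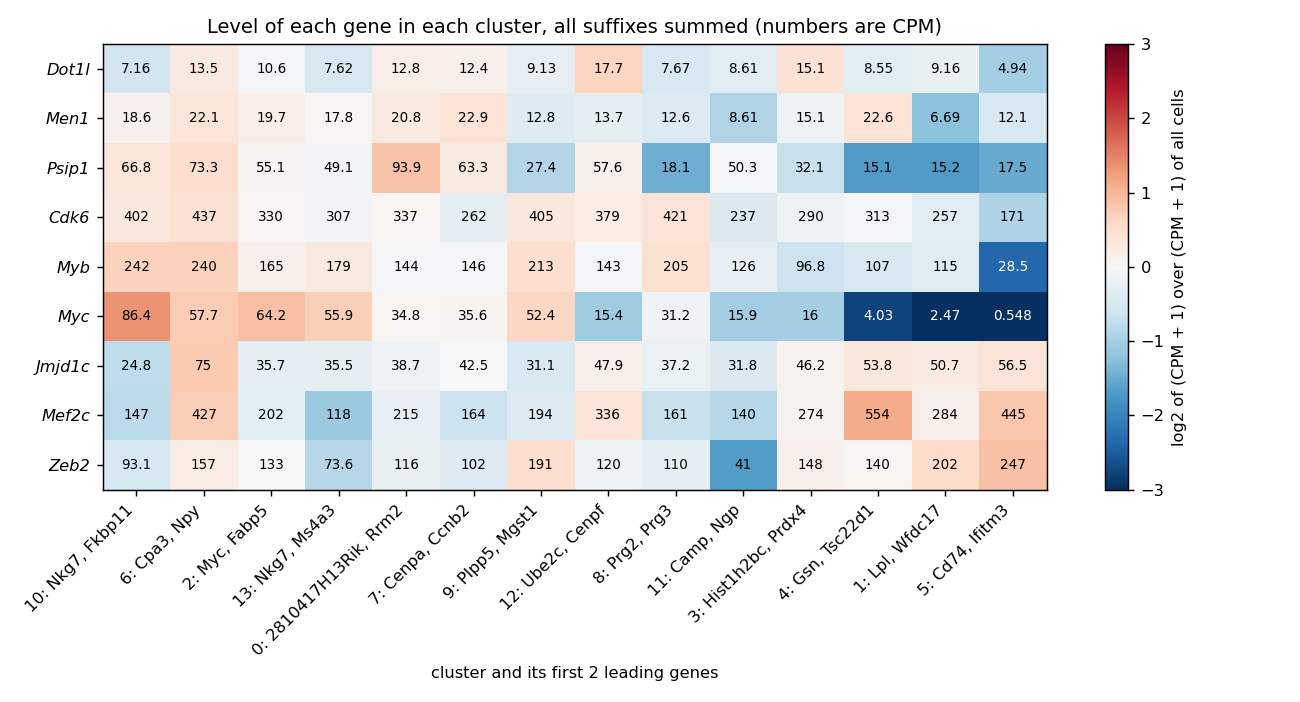
Level of each gene in each cluster with all suffixes summed: the number in a cell is CPM and its colour is the log2 ratio of (CPM + 1) to all cells, from -3 to 3. Clusters are ordered by the mean colour value of Myb, Myc and Psip1. They run from granulocyte precursor-like cluster 10 on the left to monocyte-like cluster 5 on the right. Cluster 5 has the lowest Myb and Myc, Myc by point value only, and the highest Zeb2.

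Within suffixes, the unnamed clusters showed further differences. Cluster 4 could be compared in all 4 suffixes: Mef2c was higher there (log2 1.25, with 639, 564, 553 and 524 CPM against 262, 179, 280 and 226 CPM), against 9.67% of all genes. Psip1 and Myc were lower, against 12.6% of all genes, Myc on 8 UMIs in all. In the same cluster 5 of 10 MLL-fusion targets were higher (Hoxa5, Meis1, Bcl2, Flt3 and Runx2), 10 of 14 MYC-driven genes were lower and all 12 genes of G2 and mitosis were lower. Every suffix had high Mef2c in these cells.

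In cluster 6 Mef2c and Jmjd1c were higher, against 5.41% of all genes, and 0 of the 9 were lower, against 5.90%. Jmjd1c stood at 79.8, 61.2 and 65.3 CPM in suffixes 1 to 3 against 37.3, 37.4 and 43.8 CPM in the other cells, a median log2 ratio of 0.69. Mef2c stood at 449, 376 and 400 CPM against 239, 179 and 303 CPM (0.91). The same 5 MLL-fusion targets as in cluster 4 were higher.

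Cluster 1, led by Lpl and Wfdc17, had 7 raised monocyte and 5 raised macrophage markers, none of the first among its 10 leading genes. Zeb2 was higher there (196 and 208 CPM in suffixes 3 and 4 against 119 and 145 CPM, log2 0.62), against 10.7% of all genes. Men1, Psip1 and Myc were lower, against 15.7%, Myc on 3 and 1 UMIs. The monocyte-like comparison above has cluster 1 on its other side, and with it left out Zeb2 in monocyte-like cells was at 1.10.

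Cluster 8, led by the eosinophil granule genes Prg2 and Prg3, was found mainly in suffixes 3 and 4. Of the 9 eosinophil markers, 5 were at 0 over all cells. The cluster had 3 raised eosinophil markers, 4 raised granulocyte precursor markers (Cebpe, Gfi1, Fcnb and Igsf6) and no name. Myb was higher in it (212 and 195 CPM against 106 and 106 CPM, log2 0.93), as was Myc (27.0 and 33.3 CPM against 11.4 and 14.2 CPM, log2 1.17), against 4.42% of all genes. Psip1 and Mef2c were lower, against 14.4%. All 12 genes of G2 and mitosis and 11 of 12 S phase genes were lower in it too, so these cells had high Myb and Myc with low cell cycle genes.

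In cluster 0, Psip1 was higher in all 4 suffixes (108, 105, 76.8 and 94.0 CPM against 66.1, 53.4, 24.6 and 26.3 CPM), a median log2 ratio of 1.28, against 10.8% of all genes. None of the 9 was lower there, against 11.9%. In cluster 7 Mef2c was lower (-0.64), against 6.81% of all genes, and 0 of the 9 were higher, against 2.21%. In cluster 9 Psip1 was lower (-0.97), against 6.84%, and 0 were higher, against 1.02%. In cluster 12, led by Ube2c and Cenpf, Myc was lower (-1.01), against 7.46%, and 0 were higher, against 6.54%. In clusters 2 and 3, 0 of the 9 met the rule, against 1.24% higher and 4.1% lower of all genes in cluster 2 and 0.692% higher and 5.52% lower in cluster 3. Myc led cluster 2 with all suffixes summed, at 64.2 CPM against 30.3 CPM. Within suffixes it stood at 47.4 against 56.8 CPM in suffix 1 and at 81.5 against 49.3 CPM in suffix 2, in opposite directions.

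Shares of cells with a UMI gave the same order for Myc and Myb as their levels. Myc was found in 24.8% of cells of suffix 1 (95% exact Clopper-Pearson interval 22.3 to 27.4), 26.1% of suffix 2, 6.46% of suffix 3 and 7.18% of suffix 4. With each cell thinned to 2000 UMIs, the shares were 10.2%, 10.6%, 1.90% and 2.24%. Myb was found in 66.9%, 63.7%, 44.8% and 43.3% of cells, and after thinning in 32.5%, 29.98%, 21.8% and 18.7%. No cell type that lacks these genes was identified, so a background from free RNA was not measured. In monocyte-like cells, with a median depth of 3987 UMIs, Myc was found in 1 of 243 cells of suffix 3 (0.412%) and in 0 of 176 cells of suffix 4, which allows a share of up to 1.70%.

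As a description of likeness, the log2 levels were compared over 38 sums of a cluster in a suffix (each of at least 30 cells) among 4687 genes with a mean of at least 20 CPM. Several sums come from the same suffix and no suffix is tied to a sample, so no p-value applies. The profile of Psip1 was most like those of Uhrf1 (Pearson r 0.96), Rrm2 (0.94) and Fignl1 (0.93). The gene most like Cdk6 was Myb (0.77), also one of the 9. Myb itself was most like Ap3s1 (0.86), Serpinb1a (0.84) and Cd81 (0.82).

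Myc was most like Etfb (0.91), Fam162a (0.89) and Mpo (0.88), the last being myeloperoxidase of granulocyte precursors. Zeb2 was most like Ctsa (0.91), H2-DMa (0.86) and Npc2 (0.86), and Mef2c like Cd244 (0.89) and Tcf4 (0.88). For Jmjd1c the closest were Grb2 (0.84), Macf1 (0.81) and Zfp36l2 (0.79). Men1 reached 0.71 with Pdcd2 and Dot1l 0.62 with Zranb2, the lowest of the 9.

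Among the 9 themselves, Mef2c and Jmjd1c (0.72), Myb and Myc (0.70), Psip1 and Myc (0.67) and Mef2c and Zeb2 (0.52) had positive values. Myc and Mef2c (-0.59) and Myc and Jmjd1c (-0.49) had the lowest. Dot1l stood at most at 0.33 with any other of the 9, on the fewest UMIs.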

How the data were processed

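UMI counts per gene and barcode, whole numbers with no normalization, were deposited by the authors as 1 table. Reads were processed with Cell Ranger 1.3 against mm10, and Seurat 2.3.4 was used, per the submitters' processing notes; libraries were 10x Chromium 3' libraries, per the labels' protocols. The gene annotation and the use of strand are not given in the sources used here. All 5664 columns carry only a barcode suffix and no sample, so no genotype or treatment was compared, and with 1 sample per group no p-value could be made.

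Kept cells had 500 UMIs or more and a mitochondrial share of no more than 10%; the mitochondrial limit removed all 208 excluded barcodes. Scrublet marked 27 cells (0.495%), which is taken as a failed call, and doublets were kept. Cells were scaled to 10000 UMIs, logged, and clustered (scanpy 1.11.5, Python 3.11.15) on 2000 variable genes without the 9 genes, 30 principal components, 15 neighbours and Leiden resolution 1. A cluster was named X-like where at least 3 markers of X were raised at least 2-fold at 20 CPM or more. X also had to have more raised markers than any other type. The 10 leading genes had to hold at least 1 marker of X, and more markers of X than of any other type. Counts were summed per class and suffix and compared as the report describes. From each list, at most 4 genes per class have values in the text, namely the top 2 by mean CPM and another 2 by size of log2 ratio (further called members appear by name only), and for likeness the 3 genes with the highest Pearson r (1 of them is not reported here); clusters are described by some of their 5 leading genes. The 9 genes and all lists were chosen with earlier results of these data known. Positions are from GENCODE M21 (GRCm38). Of the 9 genes 7 were in the RefSeq promoter table. Alternatives covered the clustering, cell filter, doublets, scaling (TMM factors from edgeR 4.0.16; median of ratios), pseudocount, weighting of cells, thinning and leaving out a suffix.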

Additional observations from a re-analysis of the deposited data

How the results depend on the processing

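No paired analysis was possible because each group has 1 sample, no suffix is tied to a sample and no result comes from a test. Calls were described with 1 value per suffix, so counting error is the only error shown. Of 252 levels recomputed under the alternatives, 70 left the counting interval. Of 405 log2 ratios 40 left it and 1 more, of a called gene, turned to the other sign. Changes of sign in genes without a call were not counted as turned. Men1 in granulocyte precursor-like cells, for example, stood at -0.16 and reached 0.07. Of 100 counts of called genes, 20 moved by more than 1.5-fold or to or from 0. Leaving out a suffix that a class comparison does not use returns its main value by design. Such rows are among these ratios and counts and tell nothing of how firm a call is. The turned value is Dot1l in granulocyte precursor-like cells, at 0.17 when the 9 genes may be variable genes.

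Calls that held in each alternative that gave a value were Mef2c lower in granulocyte precursor-like cells, Cdk6, Myb and Myc lower and Zeb2 higher in monocyte-like cells, and Mef2c and Zeb2 lower in neutrophil-like cells. At Leiden resolution 0.5 no cluster was named monocyte-like. The granulocyte precursor-like count of lower genes, 4, was 2 when the 9 genes may be variable genes, with no cell filter, with TMM factors, with median of ratios factors, after thinning to 2000 UMIs and without suffix 1. It was 1 at Leiden resolution 0.5 and 1 with cell cycle, ribosomal and mitochondrial genes left out of the variable genes. Its count of higher genes, 1, was 0 with no cell filter, without those variable genes, with a pseudocount of 5 CPM, after thinning, without suffix 1 and without the 3 clusters led by cell cycle genes. The monocyte-like count of higher genes, 2, was 1 when the 9 genes may be variable genes and 3 without suffix 4, with Jmjd1c added. Its count of lower genes, 5, was 4 with a mean over cells, after thinning and without suffix 3 (Dot1l lost in each), and 4 without the clusters led by cell cycle genes (Psip1 lost). The neutrophil-like count of higher genes, 0, was 1 (Psip1) with TMM factors, with median of ratios factors, with a mean over cells, without suffix 3 and without the clusters led by cell cycle genes. The cause was not tested.

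The count of genes called between suffixes was 4 to 6 throughout: Men1 was not called with a mean over cells (1.52-fold, or 1.49-fold with the added 1 CPM) or without suffix 4, and Dot1l was called after thinning. Leaving out the cell cycle-led clusters, leaving out the cluster led by Lpl and weighting clusters equally were chosen after seeing the data. Dot1l (377 UMIs) and Men1 (583) are limited by depth.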
